A study of Mus musculus with 2 samples.

Results

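Homologous recombination repairs broken DNA by copying an intact sister sequence. Broken ends are first trimmed to single strands, the single strands are coated by replication protein A (RPA), and a protein filament formed with the help of the BRCA proteins and the filament mediators then searches for a matching strand. The Fanconi anemia proteins recognise DNA crosslinks and stalled forks and hand them to the same machinery, while the kinases ATM and ATR signal the damage to checkpoint proteins. At telomeres the same enzymes matter because TERRA, the RNA transcribed from telomeric repeats, can pair with telomeric DNA and form R-loops, and because mESCs can lengthen telomeres by recombination as well as by telomerase.

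The 45 genes described here are listed recombination, Fanconi and checkpoint genes, matched by symbol in a deposited table of 18888 genes. All 45 were found. The choice used gene names, not expression values. The list was nevertheless made with earlier results of these data known. The study compared 46C mESCs, a mouse embryonic stem cell line that carries a Sox1 reporter, in 2 groups. PB mESCs carried the empty PiggyBac vector, and PB-TERRA mESCs carried the same vector expressing polyadenylated TERRA from a cloned array of telomeric repeats. Both were at passages 21 to 24 and were grown on gelatin in conventional mESC medium. Each group was sequenced as 1 library of total RNA, without replicates, so the spread between cultures is unknown and no test between the conditions was possible. Whether each line was 1 clone or a pool of transfected cells is not stated in the sources used here.

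The deposited values were read as FPKM, fragment counts scaled for gene length and library depth, so levels can be compared between genes. The steps between low values gave a depth of 24720000 reads in PB and 24860000 in PB-TERRA, from which the reads of each gene were estimated. Each difference is the log2 of FPKM + 0.1 in PB-TERRA divided by that in PB, called the log2 ratio. Their 95% intervals are exact binomial (Clopper-Pearson) intervals of the estimated reads, which cover counting error only and say nothing about the spread between cultures. All 8 markers of mESCs, Pou5f1, Sox2 and Nanog among them, passed 1 FPKM, with a summed level of 2909 FPKM in PB and 2790 in PB-TERRA. Markers of other cell types were also read. The 7 primitive endoderm markers summed to 10.5 and 14.7 FPKM, the 8 fibroblast markers to 211 and 222, the 6 neural markers to 92.3 and 82.4, and the 6 mesoderm markers to 18.2 and 17.98. Within the neural and mesoderm lists the genes differed in direction, with 3 of 5 and 2 of 4 past the filter higher in PB-TERRA and a median log2 ratio of 0.16 in each. The 9 markers of the 2-cell-like state in the table summed to 4.88 and 1.96 FPKM, and Tmem92 among them was at the floor of 0.01 FPKM in PB-TERRA. The part of these cells in the results was not tested. In bulk RNA, fewer cells of a type and less RNA per cell cannot be told apart.

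The recombination and Fanconi genes had nearly the same levels in PB and PB-TERRA mESCs. All 45 exceeded 1 FPKM in both libraries. In PB-TERRA 21 were higher, 23 lower and 1 equal (46.7% higher and 51.1% lower), against 48.6% higher and 50.9% lower among the 12263 genes that reached 1 FPKM in either library. The median log2 ratio was -0.0027 for the 45 genes and -0.0044 for all genes past this filter. With both columns rescaled to the same sum, 27 were higher and 18 lower, against 58.4% higher and 41.6% lower among the 13472 genes then past the filter. The genes lay between -0.34 for Rad51b and 0.39 for Rad52. None (0 of 45) reached a log2 ratio of 0.5 in either direction, that is, 41.4% more or 29.3% less, whereas 2.3% of all genes were higher and 2.37% lower by that rule. Among the 10683 genes with reads in the range of the 45, the shares were 1.31% and 1.26%, so that few such genes would be among 45 at the background rate. At a log2 ratio of 1 the background was 0.913%, and again 0 of the 45 genes were past it. Within 0.1 of 0 lay 60% of the 45 genes and 47.4% of all genes, and within 0.2 lay 86.7% and 74.9%.

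For 43 of the 45 genes the whole counting interval stayed within 0.5 of 0. The exceptions were Rad52, whose interval reached up to 0.61, and Rad51b, whose interval from -0.88 to 0.14 rested on about 77 and 60 reads. The interval lay above 0 for 5 genes (11.1%) and below 0 for 8 (17.8%), while it included 0 for 32. Among all genes past the filter it lay above 0 for 18.1% and below 0 for 17.7%, and among the 10683 genes in the same range of reads it was 17.2% in each direction. The share below 0 was close to the background and the share above 0 was under it, a difference that was not tested. With the columns rescaled to the same sum, 6 intervals lay above 0 and 5 below, against 23.5% and 11.7% of the 13472 genes then past the filter. Summed over the 45 genes the reads were about 67765 for PB and 67207 for PB-TERRA, which is -0.020 on the log2 scale (95% interval -0.035 to -0.0047) and became 0.018 with rescaled columns.

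**Figure D1:**
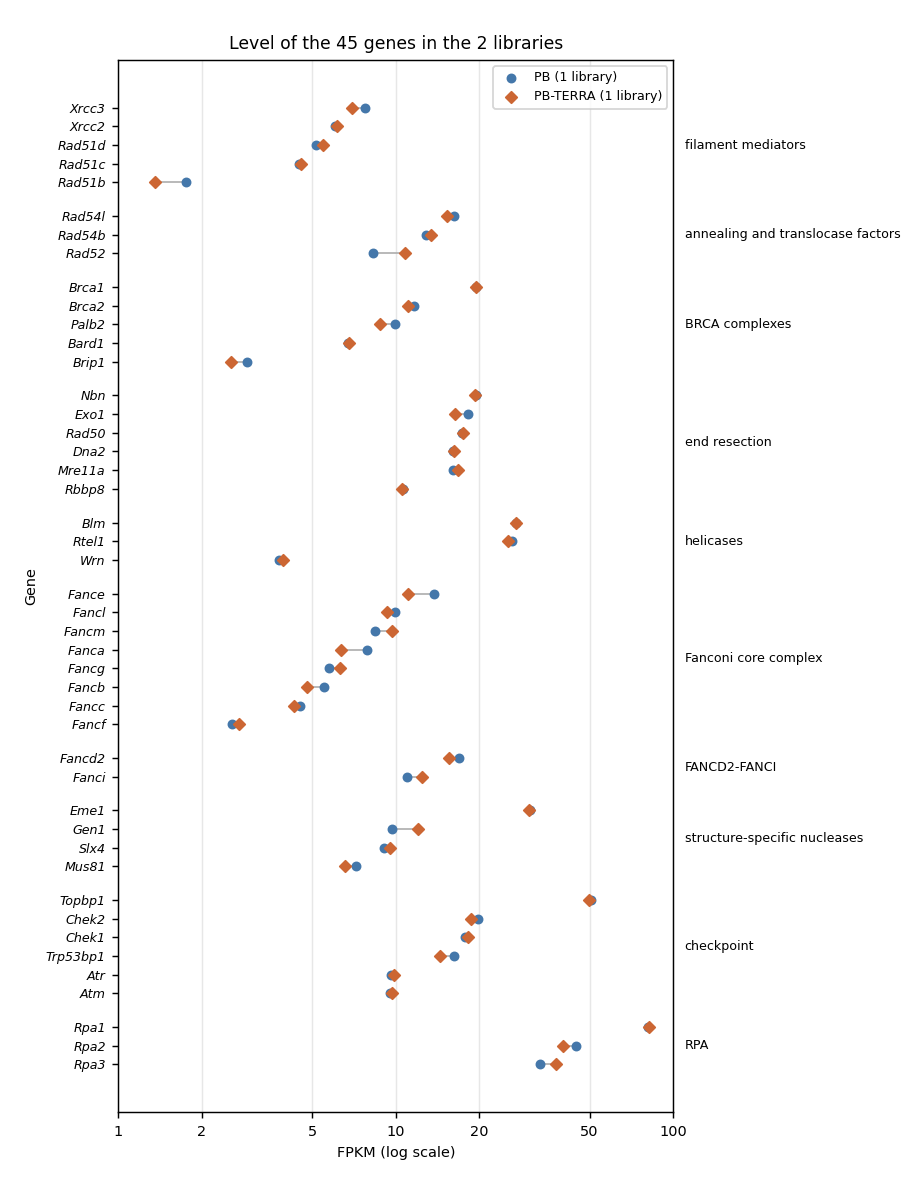
FPKM (log axis) of each of the 45 genes in the PB library (circles) and the PB-TERRA library (diamonds), grouped by role, with a grey line joining both values of a gene. Levels ran from below 2 FPKM for Rad51b to about 80 FPKM for Rpa1, and the pairs of symbols mostly touch.

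Levels differed far more between genes than between libraries. Averaged over the libraries, Rpa1 was the highest at 81.5 FPKM and Rad51b the lowest at 1.56, a 52.4-fold range. Of the 45 genes 24 had a mean of at least 10 FPKM, 15 lay from 5 to under 10, and 6 were under 5 (Rad51b, Fancf, Brip1, Wrn, Fancc and Rad51c). Across the 45 genes Pearson's r between the log2 FPKM of both libraries was 0.992, a description over genes, which are not independent replicates.

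RPA is the heterotrimer that covers single-stranded DNA in replication and repair. Its genes were the most abundant group and held 23.0% of the summed FPKM of the 45 genes in PB and 23.2% in PB-TERRA. Rpa1, the large DNA-binding subunit, was at 81.4 FPKM in PB against 81.7 in PB-TERRA (log2 ratio 0.0049, 95% interval -0.047 to 0.057). Rpa2, the subunit phosphorylated upon damage, had 44.7 and 39.99 FPKM, about 1845 and 1659 reads, with an interval below 0 (-0.26 to -0.065). Rpa3, the smallest subunit, had 33.1 and 37.9 FPKM, about 444 and 510 reads, and its interval from 0.0054 to 0.38 only just cleared 0. The 3 subunits of 1 complex thus stood on different sides of 0, with log2 ratios of 0.0049, -0.16 and 0.19. Of the 50-base stretches of the annotated Rpa3 transcripts, 9.48% also occur in the annotated genes Gm6195 or Gm14766, so its value is uncertain to the extent that reads were divided among these genes.

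End resection opens the break. The MRN complex, which binds the ends, showed hardly any difference. Mre11a, its nuclease, was at 16.1 FPKM in PB against 16.8 in PB-TERRA. Rad50, its clamp-like ATPase, had 17.3 and 17.4 FPKM. Nbn, which recruits ATM, had 19.5 and 19.3 FPKM. Their log2 ratios were 0.058, 0.0099 and -0.013, and all 3 intervals included 0. With rescaled columns the interval of Mre11a moved above 0. Rbbp8 (CtIP), the cofactor that starts resection, had 10.6 FPKM in each library. The long-range nucleases differed from each other. Dna2 had 16.1 and 16.3 FPKM with a log2 ratio of 0.012. Exo1 had 18.2 and 16.4 FPKM, about 2576 and 2336 reads, a log2 ratio of -0.15 (95% interval -0.23 to -0.068).

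The BRCA proteins act on the coated strand and start the exchange of strands. Brca1, the ubiquitin ligase that promotes resection, had 19.5 FPKM in both libraries, with about 3149 and 3166 reads and the only log2 ratio of exactly 0. Its partner Bard1 had 6.75 and 6.80 FPKM. Brca2, which promotes strand exchange, had 11.7 and 11.1 FPKM (log2 ratio -0.072, 95% interval -0.15 to 0.00048), so its interval ended almost at 0. With the length trend taken off it was -0.15 (95% interval -0.22 to -0.078). Palb2, which links BRCA1 to BRCA2, had 9.92 and 8.80 FPKM, about 893 and 797 reads (log2 ratio -0.17, 95% interval -0.31 to -0.033). The helicase Brip1 (FANCJ) had 2.91 and 2.55 FPKM, about 491 and 432 reads, and its interval reached from -0.38 to -0.0034. With rescaled columns the intervals of Palb2 and Brip1 included 0. This group of 5 held 3 lower genes, 1 higher and 1 equal, around a median of -0.072, which was -0.15 with the length trend taken off and -0.034 with rescaled columns.

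The filament mediators Rad51b, Rad51c, Rad51d, Xrcc2 and Xrcc3 encode related proteins that support strand exchange. They were expressed at low levels, with a median of 5.31 FPKM, and the intervals of all 5 included 0. Rad51c was at 4.48 FPKM in PB against 4.54 in PB-TERRA, and Rad51d had 5.15 and 5.46. Xrcc2 had 6.06 and 6.13 FPKM. Xrcc3, whose protein pairs with that of Rad51c, had 7.76 and 6.94 FPKM (log2 ratio -0.16). Rad51b had 1.75 and 1.36 FPKM, the lowest level and the lowest log2 ratio of the 45 genes (-0.34), which this depth cannot tell from 0. Summed over the 5 genes, the reads gave -0.027 on the log2 scale (95% interval -0.12 to 0.071).

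Rad52, which anneals single strands and serves recombination at telomeres and stalled forks, had the highest log2 ratio of the 45 genes. It was at 8.26 FPKM in PB against 10.8 in PB-TERRA, about 320 and 422 reads. The log2 ratio was 0.39 (95% interval 0.18 to 0.61), and it was 0.43 both after correction for gene length and with rescaled columns. No exon of Rad52 overlaps another gene in GENCODE M21, and none of its 50-base stretches occurs in another annotated transcript (0%). The translocases of the same group were near 0. Rad54l, which moves along DNA during strand exchange, had 16.2 and 15.3 FPKM (log2 ratio -0.076), and Rad54b had 12.9 and 13.4 (0.056). The value of Rad54b is uncertain, because 34.5% of its 50-base stretches also occur in Fsbp, which overlaps it on the same strand.

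The Fanconi core complex, an 8-gene group here, attaches ubiquitin to FANCD2 and FANCI. Its genes spanned the widest range of log2 ratios of the 10 role groups, from -0.31 to 0.20, although the SD was larger in the smaller groups of annealing and translocase factors and of Fancd2 and Fanci. Fance, which bridges the core to FANCD2, was at 13.8 FPKM in PB against 11.1 in PB-TERRA, about 634 and 513 reads (log2 ratio -0.31, 95% interval -0.48 to -0.14). Fanca had 7.89 and 6.36 FPKM, about 864 and 700 reads (log2 ratio -0.31, 95% interval -0.46 to -0.17). Fancm, the translocase that anchors the complex on DNA, was higher in PB-TERRA with 8.43 and 9.69 FPKM, about 1597 and 1846 reads (log2 ratio 0.20, 95% interval 0.10 to 0.30). The other five had intervals that included 0. Fancb had 5.51 and 4.78 FPKM, about 391 and 341 reads, and its interval reached from -0.42 to 0.0077. The ubiquitin ligase Fancl had 9.92 and 9.33, Fancc 4.51 and 4.30, Fancg 5.75 and 6.29, and Fancf 2.58 and 2.72 FPKM. In all, 5 of the 8 were lower and 3 higher, around a median of -0.077, which was -0.14 among those with a mean of at least 5 FPKM and -0.040 with rescaled columns. Genes on the opposite strand overlap exon bases of Fancc (18.6%), Fancf (14.96%), Fancl (13.7%) and Fancm (7.07%), and outside the core complex those of Rad54l (15.4%), Eme1 (10.7%) and Palb2 (5.64%). In Atr 5.78% of the exon bases are overlapped, on either strand.

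Fancd2 and Fanci encode the pair of proteins that the core complex modifies and that clamp onto DNA together. Fancd2 was at 16.9 FPKM in PB against 15.5 in PB-TERRA, about 2209 and 2045 reads (log2 ratio -0.12, 95% interval -0.21 to -0.032). Fanci had 10.98 and 12.4 FPKM, about 1224 and 1394 reads (log2 ratio 0.18, 95% interval 0.068 to 0.29). Their intervals lay on opposite sides of 0, and their summed reads, about 3433 and 3439, had a log2 ratio of -0.0056. With rescaled columns the interval of Fancd2 included 0 while that of Fanci stayed above it. Of the exon bases of Fanci 16.0% overlap Polg on the opposite strand, and of those of Fanca 10.5% overlap Zfp276. The library kit in the labels does not mark strand, so reads from such stretches cannot be assigned to 1 of both genes.

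The structure-specific nucleases cut the joined DNA molecules that recombination leaves behind. Gen1, which cleaves Holliday junctions, had the second highest log2 ratio of the 45 genes, with 9.73 FPKM in PB and 12.1 in PB-TERRA. Its estimated reads were 838 and 1044 (log2 ratio 0.31, 95% interval 0.18 to 0.44). The scaffold Slx4 had 9.07 and 9.50 FPKM (log2 ratio 0.066). Mus81 and its partner Eme1, which form 1 nuclease, had 7.17 and 6.56 FPKM and 30.5 and 30.2 FPKM, so Eme1 was several times as abundant as Mus81 in both libraries. Neither of their intervals lay on 1 side of 0. The helicases that unwind such structures were near 0 as well. Blm, which dissolves double junctions, had 27.2 and 27.0 FPKM. Rtel1, which unwinds telomeric loops, had 26.2 and 25.5 FPKM. Wrn, the helicase lost in Werner syndrome, had 3.79 and 3.94 FPKM. Their log2 ratios were -0.0069, -0.042 and 0.055.

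The checkpoint kinases and their mediators were level except for 1 gene. Atm, the kinase that responds to double-strand breaks, was at 9.50 FPKM in PB against 9.71 in PB-TERRA. Atr, the kinase that responds to RPA-coated DNA, had 9.61 and 9.85 FPKM. Chek1 and Chek2, the kinases they activate, had 17.8 and 18.3 FPKM and 19.8 and 18.7 FPKM. Topbp1, the activator of ATR, was the most abundant of this group at 50.6 and 49.7 FPKM. The log2 ratios of these 5 genes lay between -0.080 and 0.038, and all of their intervals included 0. With the length trend taken off, the interval of Topbp1 lay below 0. Trp53bp1, which encodes the 53BP1 protein that restrains resection, was the exception with 16.2 and 14.4 FPKM, about 3826 and 3416 reads (log2 ratio -0.17, 95% interval -0.24 to -0.10). Of its exon bases 15.04% overlap Tubgcp4 on the opposite strand.

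**Figure D2:**
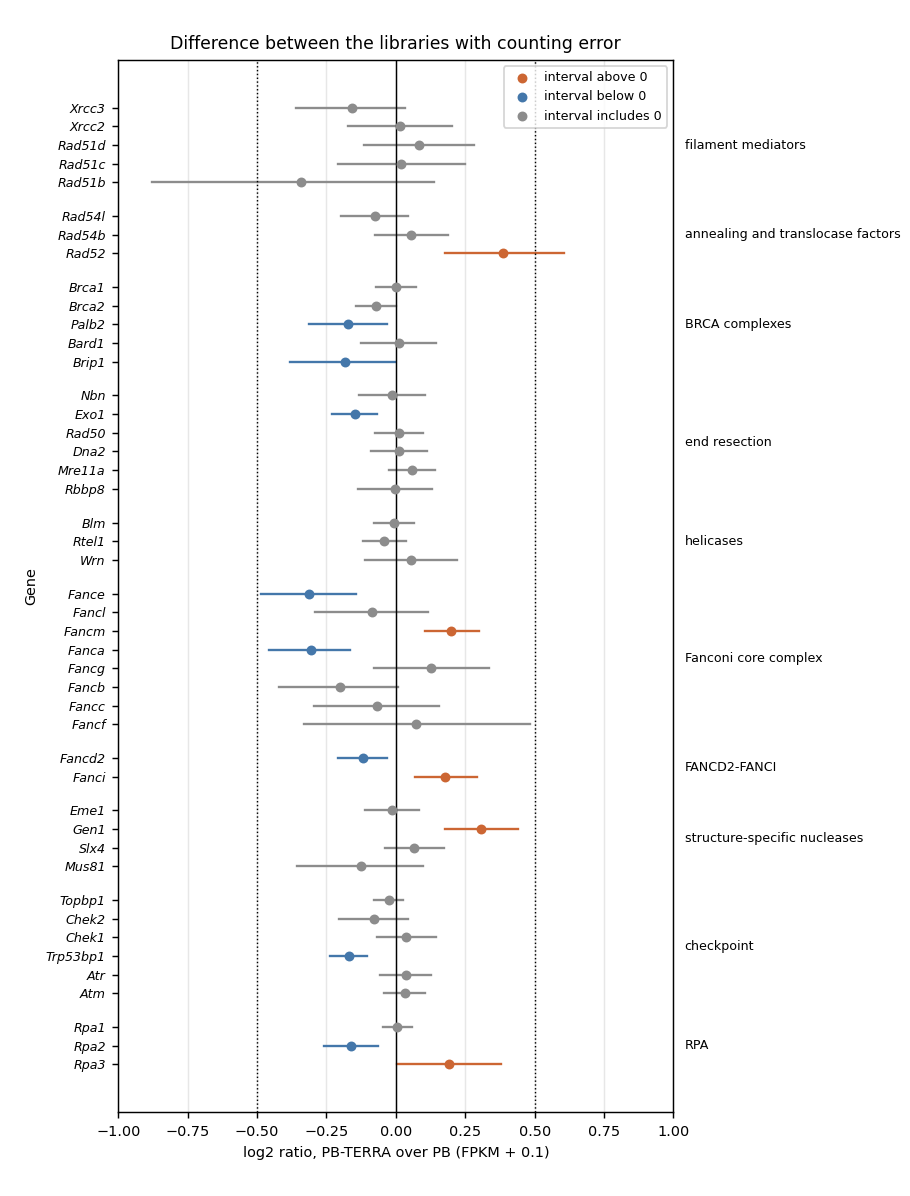
Log2 ratio of FPKM + 0.1, PB-TERRA over PB, of each of the 45 genes (points) with the exact 95% counting interval of its estimated reads (bars), grouped by role; the dotted lines mark a log2 ratio of 0.5 in either direction. The 5 intervals above 0 belong to Rad52, Gen1, Fancm, Rpa3 and Fanci, the 8 below 0 are spread over 6 of the 10 role groups, and no point lies past the dotted lines.

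The table carries GO terms for each gene. Of the 45 genes 10 have a term that names telomeres, namely Atm, Atr, Chek2, Mre11a, Nbn, Rad50, Rad51d, Rpa3, Rtel1 and Slx4. PB-TERRA was higher for 7 and lower for 3, against 48.6% and 50.9% of all genes. The median was 0.033, or 0.0072 with the length trend taken off, and only the interval of Rpa3 lay on 1 side of 0. A further 57 genes of the table carry such a term, and 50 of them passed the filter. Their median log2 ratio was 0.018, with 15 intervals above 0 and 10 below, against 18.1% and 17.7% of all genes.

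Among the genes past the filter, longer ones had higher log2 ratios. The median log2 ratio was -0.059 in the tenth of genes with the shortest length and 0.047 in the tenth with the longest (1227 genes each). The 45 genes are long, with a median of 3596 bases against 2801 for all genes past the filter. After the median of genes of similar length was subtracted, the median log2 ratio of the 45 genes was -0.023, with 18 higher and 26 lower, against 49.8% of all genes in each direction. All 13 intervals on 1 side of 0 kept their side, and Brca2 (-0.15) and Topbp1 (-0.059) joined those below 0, which makes 5 above and 10 below, against 18% and 17% of all genes. Among the 45 genes themselves, Spearman's rho between length and log2 ratio was 0.075, and 0.19 over all 12263 genes, both as descriptions across genes. The part of length in single values was not tested.

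**Figure D3:**
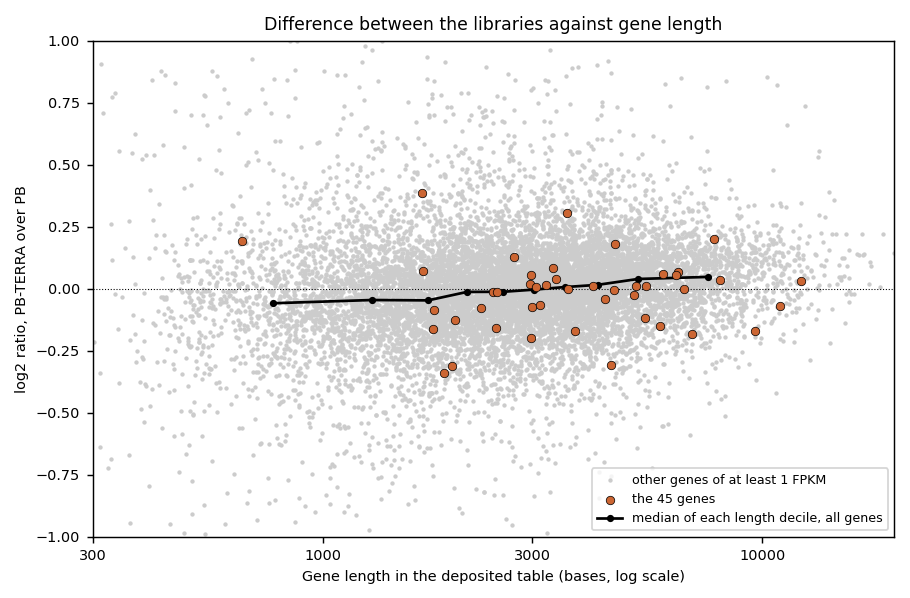
Log2 ratio, PB-TERRA over PB, against gene length (log axis) for the 45 genes (orange) and all other genes of at least 1 FPKM (grey), with the median of each length decile as a black line; genes outside the axis limits are not drawn. The decile medians climb from -0.059 to 0.047, and the 45 genes scatter around them on both sides.

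Promoter windows from RefSeq, 250 bases before to 50 after the annotated start on GRCm38.p6, were found for 36 of the 45 genes (39 windows). They were searched on both strands for 4 kinds of words, and matches of different kinds shared bases in 0 cases. E2F factors drive genes of the S phase. The E2F-like words TTTGGCGC, TTTCCCGC, TTTCGCGC and TTTGCCGC were held by 17.9% of the members' windows, 2.26% of all 32851 windows and 4.21% of the windows of genes past the filter. They occurred in 6 genes, Bard1, Brca2, Chek2, Fancg, Rad51c and Topbp1. The CCAAT box, a word read by NF-Y, was in 56.4% of the members' windows and 37.4% of all windows. The CHR element TTTGAA, found in many genes of the cell cycle, was in 7.69% and 17.9%, and in 11.7% of the windows of genes past the filter. The telomere repeat TTAGGG, the DNA form of the TERRA repeat, was in 1 window, that of Trp53bp1 (2.56% against 10.6% of all windows). A match of letters is a description and not a binding site.

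The E2F-like words are shown in their 30-base context, because their share differed most, in proportion, from that of all windows. They were chosen for printing after their counts were seen. Each line reads 5′ to 3′ in the direction of the gene on GRCm38.p6, with the word in capitals. Rad51c has another match in a second window. The places are chr1:71103163-71103192 (- strand) for Bard1, chr5:150522442-150522471 (+) for Brca2, chr5:110839820-110839849 (+) for Chek2, chr4:43010335-43010364 (-) for Fancg, chr11:87404941-87404970 (-) for Rad51c and chr9:103305187-103305216 (+) for Topbp1.
Bard1: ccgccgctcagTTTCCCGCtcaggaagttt
Brca2: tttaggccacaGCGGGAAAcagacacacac
Chek2: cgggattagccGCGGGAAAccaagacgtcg
Fancg: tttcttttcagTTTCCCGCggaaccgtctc
Rad51c: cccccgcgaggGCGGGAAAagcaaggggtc
Topbp1: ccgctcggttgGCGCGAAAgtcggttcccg
None of these 6 genes had an interval on 1 side of 0, although those of Brca2 and Topbp1 lay below 0 with the length trend taken off. Their log2 ratios lay between -0.080 for Chek2 and 0.13 for Fancg.

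The 250 bases before the start are printed for the genes with the highest and the lowest log2 ratio among those whose interval lay on 1 side of 0, Rad52 and Fance. These printed bases lie on chr6:119902448-119902697 (+ strand) for Rad52 and chr17:28313280-28313529 (+ strand) for Fance, on GRCm38.p6. Capitals mark a match to any of the words searched. The Fance window holds the CCAAT box in reverse, starting 202 bases before the annotated start, and these letters do not occur in the Rad52 window.
Rad52: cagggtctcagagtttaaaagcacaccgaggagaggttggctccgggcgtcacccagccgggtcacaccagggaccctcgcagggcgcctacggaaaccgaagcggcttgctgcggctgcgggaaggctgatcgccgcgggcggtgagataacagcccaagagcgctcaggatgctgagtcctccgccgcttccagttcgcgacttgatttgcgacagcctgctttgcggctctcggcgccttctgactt
Fance: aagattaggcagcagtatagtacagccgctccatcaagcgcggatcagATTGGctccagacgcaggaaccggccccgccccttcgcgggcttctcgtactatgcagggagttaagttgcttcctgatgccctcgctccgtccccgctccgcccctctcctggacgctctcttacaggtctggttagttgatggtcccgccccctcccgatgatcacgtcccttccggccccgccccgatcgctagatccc

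Other genes of the same pathways were likewise split between higher and lower. Of a further 60 listed recombination, Fanconi and checkpoint genes, 58 were in the table and passed the filter. Of these 30 were higher, 27 lower and 1 equal, 0 were past a log2 ratio of 0.5, and the median was 0.010, or 0.048 with rescaled columns. The interval lay above 0 for 10 and below 0 for 8, against 18.1% and 17.7% of all genes. The highest were Etaa1, an activator of ATR, with 13.98 and 17.4 FPKM (log2 ratio 0.31), and Nfatc2ip (0.27). The lowest were Ercc1, a subunit of the crosslink nuclease, with 33.4 and 26.2 FPKM (-0.35), and Atrip, the partner of ATR, with 8.95 and 7.13 FPKM (-0.32). Atr itself was at 0.035.

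The values of 3 neighbouring repair and replication lists are given only for scale. Of 42 replication genes 14 were higher and 28 lower, with a median log2 ratio of -0.045 and values from -0.23 for Cdc7 and -0.22 for Pole2 to 0.16 for Pola1 and 0.29 for Mcm10. Mcm10 had the highest level of these genes, 1327 and 1621 FPKM over a listed length of 517 bases. Whether its reads come from Mcm10 itself was not tested, so its value is uncertain. The median of the replication genes was -0.0071 with rescaled columns and -0.022 with the length trend taken off. The interval lay above 0 for 5 of them and below 0 for 14, against 18.1% and 17.7% of all genes. The replication genes had a median of 2186 estimated reads per library, against 760 for all genes past the filter, so their intervals were narrower. The 9 genes of non-homologous end joining, the pathway that competes with recombination for breaks, had a median of -0.0030 (0.035 with rescaled columns, -0.034 with the length trend taken off), from Xrcc4 (-0.20) and Nhej1 (-0.15) to Polm (0.045) and Lig4 (0.20). Of 17 nucleotide excision repair genes 12 were lower, against 50.9% of all genes, with a median of -0.052 (-0.014 with rescaled columns), from Xpa (-0.38) and Gtf2h4 (-0.23) to Cetn2 (0.088) and Gtf2h1 (0.19). The interval lay above 0 for 1 of them and below 0 for 3. In these 3 lists 0 genes were past a log2 ratio of 0.5. The differences between the lists were not tested.

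**Figure D4:**
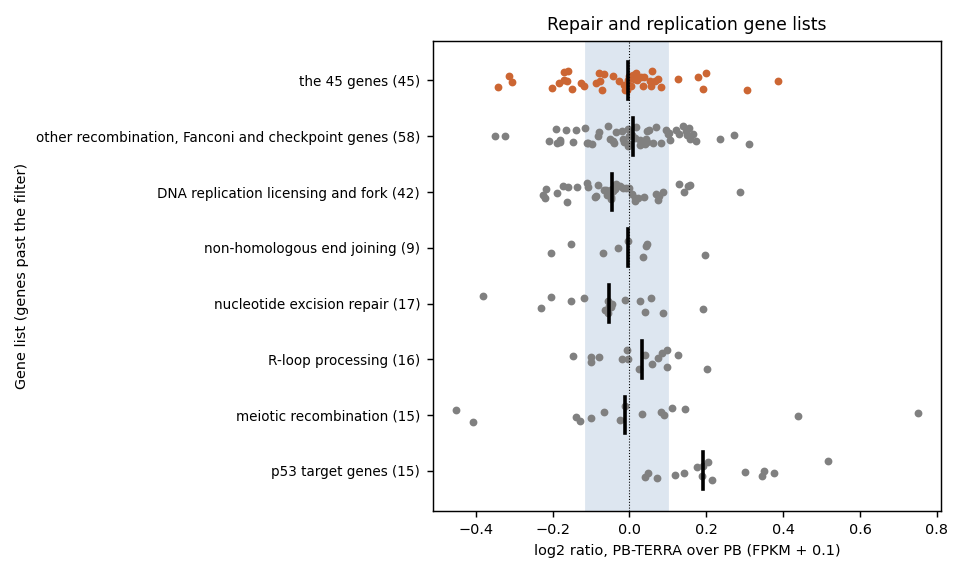
Log2 ratio, PB-TERRA over PB, of the genes past the filter (points, spread vertically for sight) in the 45 genes (orange) and in 7 other lists (grey), with the list's median as a black bar and the middle 50% of all genes past the filter as the blue band. The medians lie inside the band for the 45 genes (-0.0027) and 6 of the other lists, while that of the p53 target genes (0.19) lies to its right.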

How the data were processed

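The authors sequenced 1 BGISEQ-500 library each from PB and PB-TERRA cells of the 46C line. The authors deposited 1 table of 18888 genes with FPKM values at 2 decimals and a floor of 0.01. The unit is not in the header and was inferred from the values. The submitters' processing notes name HISAT, Cufflinks and mm9, and the annotation is not given in the sources used here. The table's columns with the authors' own fold changes, p-values and calls were not used.

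Log2 ratios used FPKM + 0.1 and a filter of 1 FPKM in 1 library or both. Low values of genes under 1500 bases moved in steps of 1 read once 113 bases, a fitted number, were taken off the length. Of the 1465 and 1534 values used for this, 85.0% in PB and 88.9% in PB-TERRA lay within 0.2 of a whole read. Reads were then estimated as FPKM times the shortened length times the depth and rounded. This step was tested on simulated data with known depth. No p-value is given, since 1 library per condition allows no test.

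The members, lists and alternatives were chosen with earlier results of these data known. All 45 genes are named. In the other repair, replication, R-loop, meiotic and p53 lists, the 2 highest and 2 lowest log2 ratios past the filter are named. Marker lists and GO terms are given by totals and counts. Pou5f1, Sox2 and Nanog are named as well-known examples, and Tmem92 was named after its value was seen. The result of 1 further list is not reported here. Overlaps and shared 50-base stretches were read from GENCODE M21 and promoters from RefSeq, both on GRCm38, which is not the build of the notes, so no coordinates were joined to the values. Calculations ran in Python 3.11.15 with scipy 1.17.1, pandas 2.3.3 and numpy 2.4.6, and plots in matplotlib 3.10.9.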

Additional observations from a re-analysis of the deposited data

How the results depend on the processing

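Of 63 values of 7 summary results under 9 alternatives, 58 stayed within the rule. A count had to stay within 1.5 times its main value. For the median and the summed reads the shift had to be smaller than 1 arm of the summed reads' interval, middle to end. With both columns rescaled to the same sum, which shifts the log2 ratio of summed FPKM by 0.038 and that of weak genes by less or more, since 0.1 is added, 5 members had an interval below 0, the median log2 ratio was 0.035, and the summed reads turned to 0.018. With the length trend taken off, the median was -0.023 and the summed reads gave -0.043. Centring and median-of-ratios factors moved the median to 0.0017 and 0.0014, so the sign of the median depends on the scaling. The count past a log2 ratio of 0.5 was 0 in all 9. Of 399 values for single members 396 stayed within their interval, the others being Atm, Trp53bp1 and Brca2 with the length trend taken off, where Atm was -0.048 against 0.031. Of 215 medians of role groups and lists 189 shifted by less than 1 arm of the interval of the group's summed reads. A median has no interval of its own. No paired analysis was possible because each condition has 1 library, and for the same reason no library could be left out. Depth limited Rad51b most, with 77 and 60 reads.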

Other observations

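Genes downstream of the checkpoint were read beside the kinases themselves. Of 16 listed target genes of p53, the transcription factor that ATM and CHEK2 activate, 15 passed the filter and all 15 were higher in PB-TERRA, against 48.6% of all genes. Their median log2 ratio was 0.19, and the interval lay above 0 for 11 of them, against 18.1% of all genes. With a median of 2115 estimated reads per library, against 760 for all genes past the filter, their intervals were narrower. The highest were Pmaip1, a promoter of apoptosis, with 16.1 FPKM in PB against 23.1 in PB-TERRA (log2 ratio 0.52), and Trp53inp1 with 27.8 and 36.1 FPKM (0.38). The lowest were Aen (0.039) and Sesn2 (0.048). The median was 0.23 with rescaled columns and 0.21 with the length trend taken off. The list stood apart from the members by its values in these libraries alone, and this difference was not tested. Among the marker lists, the 5 primitive endoderm markers past the filter were also all higher, with a median of 0.41.

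Of 16 genes that process R-loops or keep them from forming 9 were higher and 7 lower, with a median log2 ratio of 0.033, which was 0.071 with rescaled columns and 0.0094 with the length trend taken off. The interval lay above 0 for 7 and below 0 for 1, against 18.1% and 17.7% of all genes. These genes had a median of 3742 estimated reads per library, against 760 for all genes past the filter. Their intervals were therefore narrower, and the shares are not alike. Thoc2 had 17.0 and 19.6 FPKM (0.20) and Srsf1 86.3 and 94.2 (0.13), whereas Rnaseh2c (-0.15) and Rnaseh2b (-0.10) were the lowest, both with intervals that included 0. Genes of meiotic recombination were mostly weak, and 15 of the 24 in the table passed the filter, with a median of -0.012. Hormad1 had 0.88 and 1.55 FPKM (0.75) and Tex15 0.94 and 1.31 (0.44), while Dmc1 had 2.17 and 1.56 (-0.45) and Smc1b 1.04 and 0.76 (-0.41). Hormad1, Tex15 and Smc1b passed the filter only through the library where they were higher, so that their differences are partly fixed by the filter. The median of the list was 0.013 with rescaled columns, where more of its genes passed the filter. For the 15 genes it was 0.035 with the length trend taken off, so its sign depends on the processing.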
